A study of Mus musculus with 6 samples.

Results

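The primitive erythroid programme was followed through 37 genes in RNA from the pharyngeal region of E9.5 mouse embryos, as a gauge of how much blood each dissection held. The genes were taken by symbol as a given list and not by their values. They comprise 3 embryonic and 4 adult globins, 7 enzymes of haem synthesis, 2 genes of iron uptake, 5 of the membrane skeleton and anion exchanger, 4 of Rh and other blood-group proteins, 6 transcriptional regulators, the erythropoietin receptor and 5 other red-cell genes. All 37 were among the 14647 genes of the table and all passed the filter on low expression. Libraries came from 3 *Pax9*-null (*Pax9*-/-) and 3 wild-type embryos on a C57Bl/6J background, matched for stage by somite count. The null allele is carried in every cell of the embryo, with no Cre driver involved, and the controls carried no engineered allele. The tissue ran from the border of arches 1 and 2 down to where the heart begins, with its vessels and their contents. The sample labels describe sorted cells and Smart-seq2 libraries, whereas the study's methods describe whole dissected tissue and TruSeq libraries, and the methods are followed here.

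Primitive red cells arise in the yolk sac, enter the circulation once the heart beats, and mature in the bloodstream while still nucleated. They make embryonic haemoglobin from the zeta globin of the alpha cluster and the epsilon-y and beta-h1 globins of the beta cluster, and the adult alpha globins are already read in them. Haem for each chain is built in a chain of enzymes that starts in mitochondria and ends with the insertion of iron. GATA1 binds GATA motifs and KLF1 binds CACCC motifs at many of these genes.

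The promoters below are shown because the pattern described here runs through genes of different clusters and pathways. RefSeq promoter sequences (GRCm38.p6) matched 29 of the 37 genes, and *Hbb-bh1* and *Slc4a1* were among the 8 without one. For each of 5 genes the 150 bases before the transcription start are given 5′ to 3′ on the strand of the gene, and capitals mark matches on either strand. The motifs were the GATA box with the letters AGATAA, the CACCC box with CCNCNCCC, the TATA box with TATAAA, its globin variant with CATAAA and the CCAAT box, spelled as it is named.
*Hbb-y* lies at chr7:103853208-103853357 on the minus strand, *Hba-x* at chr11:32276450-32276599 on the plus strand, *Hba-a1* at chr11:32283522-32283671 on the plus strand, *Hbb-bs* at chr7:103827929-103828078 on the minus strand and *Alas2* at chrX:150547267-150547416 on the plus strand.
*Hbb-y*: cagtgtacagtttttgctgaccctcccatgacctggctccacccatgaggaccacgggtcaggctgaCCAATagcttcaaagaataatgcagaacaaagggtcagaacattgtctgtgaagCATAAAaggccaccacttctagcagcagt
*Hba-x*: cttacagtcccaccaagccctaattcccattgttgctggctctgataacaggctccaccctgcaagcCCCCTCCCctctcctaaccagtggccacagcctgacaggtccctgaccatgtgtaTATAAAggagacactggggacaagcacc
*Hba-a1*: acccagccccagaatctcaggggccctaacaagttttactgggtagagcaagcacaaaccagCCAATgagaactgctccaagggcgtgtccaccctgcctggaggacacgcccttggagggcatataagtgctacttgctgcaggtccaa
*Hbb-bs*: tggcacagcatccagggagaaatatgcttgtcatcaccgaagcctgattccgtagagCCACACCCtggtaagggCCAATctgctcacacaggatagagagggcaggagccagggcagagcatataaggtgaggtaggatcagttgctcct
*Alas2*: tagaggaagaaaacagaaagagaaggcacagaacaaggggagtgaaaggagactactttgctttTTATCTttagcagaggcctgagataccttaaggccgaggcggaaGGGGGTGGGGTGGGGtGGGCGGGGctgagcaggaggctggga
The embryonic beta-like gene *Hbb-y* carries CCAAT from position −83 and CATAAA from −29, counted back from the start. The embryonic alpha-like gene *Hba-x* carries a CCNCNCCC match, spelled CCCCTCCC, from −83 and TATAAA from −28. The letters CACCC also occur in lower case in *Hbb-y*, *Hba-x* and *Hba-a1*, outside any CCNCNCCC match. In *Alas2* the AGATAA match lies on the opposite strand from −86. Beside it are 4 CCNCNCCC matches that begin between −42 and −26, and 3 of them overlap. Over the 250 bases before the start, AGATAA was present in 8 of the 29 genes (27.6%) and in 11.4% of 27025 genes with a promoter entry. CCAAT was present in 17 (58.6% against 37.5%), CCNCNCCC in 16 (55.2% against 48.5%), TATAAA in 6 (20.7% against 14.3%) and CATAAA in *Hbb-y* alone (3.4% against 12.4%). These matches are descriptions of the letters and not measured binding sites.

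*Pax9* itself, the check of the genotype labels, gave 43, 37 and 39 reads in *Pax9*-null replicates 1, 2 and 3 and 99, 102 and 123 reads in wild-type replicates 1, 2 and 3, a log2 fold change of −1.32 ± 0.19 (SE; adjusted *P* = 0.0155, limma). The values are log2 RPKM as deposited, and levels are given here as RPKM, a read count scaled by the length of the gene and the size of the library. Effective library sizes worked out from the values lay between 11509907 and 11728256 reads in the *Pax9*-null and between 12352672 and 12692322 in the wild-type libraries. The summed RPKM of 13 cardiomyocyte markers was 1764, 1462 and 1355 in the *Pax9*-null libraries and 1465, 1591 and 81.4 in wild-type replicates 1, 2 and 3. Of the 13547 genes tested with limma, 26.7% passed at an adjusted *P* of at most 0.1, 14.7% higher and 12.0% lower in *Pax9*-null embryos, and 11 of the 37 erythroid genes did (29.7%), a share near that background. Below, a gene is said to have risen or fallen only if it passed. The dissection labelled wild-type replicate 3 thus stood apart in heart tissue. Without it 7 of the 11 calls were lost, and the share called of all tested genes was 15.8%. The limma adjusted *P* values were then 0.121 in *Hbb-bh1*, 0.151 in *Uros*, 0.121 in *Cpox*, 0.129 in *Rhag*, 0.133 in *Tal1*, 0.155 in *Trim10* and 0.102 in *Car2*. Such a loss was not particular to this library. Leaving out wild-type replicate 1 or 2 left 4 or 6 calls, and leaving out *Pax9*-null replicate 1 or 3 left 0.

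The 3 embryonic globins were the most abundant members, and their summed level was 4682, 2541 and 4239.8 RPKM in *Pax9*-null replicates 1, 2 and 3 and 2293, 2390.2 and 2341 RPKM in wild-type replicates 1, 2 and 3. *Pax9*-null replicates 1 and 3 were high, and *Pax9*-null replicate 2 was just above the wild-type libraries. In bulk tissue, fewer red cells and less RNA per red cell cannot be told apart. *Hbb-bh1*, the beta-h1 globin, measured 2003, 1104 and 1797 RPKM in the *Pax9*-null and 863, 961 and 957 RPKM in the wild-type libraries. Behind these values stood 6711 to 14220 reads per library. The groups did not overlap, and *Hbb-bh1* rose 1.71-fold in *Pax9*-null embryos (log2 fold change 0.78 ± 0.23, SE; adjusted *P* = 0.067, limma). *Hbb-y*, the epsilon-y globin, measured 1975, 1035 and 1751 RPKM against 1022, 1028 and 996 RPKM. Here the lowest *Pax9*-null library cleared the highest wild-type library by a few RPKM, and the difference of 0.59 ± 0.25 did not pass the test (adjusted *P* = 0.132, limma). *Hba-x*, the zeta globin, measured 703, 402 and 691 RPKM against 408, 401 and 389 RPKM, with overlapping groups and a log2 fold change of 0.54 ± 0.22 (adjusted *P* = 0.122, limma).

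The direction of the globins depended on how short genes were treated. The 7 globins have exon lengths of 613 to 938 bp, and the 337 tested genes in that range had a median log2 fold change of 0.54, beside 0.72 for the globins and −0.00 for all tested genes. Once each library's dependence on gene length and GC content was regressed out, the log2 fold change was −0.06 in *Hbb-bh1* and −0.15 in *Hbb-y*, and stayed above 0 in the other 5 globins. Quantile normalization gave −0.05 in *Hbb-y*. With the length and GC trends removed, the embryonic globin sum over its mean of the 6 libraries was 1.23, 0.734 and 1.0 in the *Pax9*-null and 1.14, 0.885 and 1.02 in the wild-type libraries, in place of 1.52, 0.825 and 1.38 against 0.744, 0.776 and 0.76 in the deposited values. *Pax9*-null replicate 2 was the lowest of its genotype on both scales, whereas the step between genotypes was absent once those trends were removed. With quantile normalization the same ratios were 1.25, 0.769 and 1.09 against 1.14, 0.822 and 0.924.

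**Figure D1:**
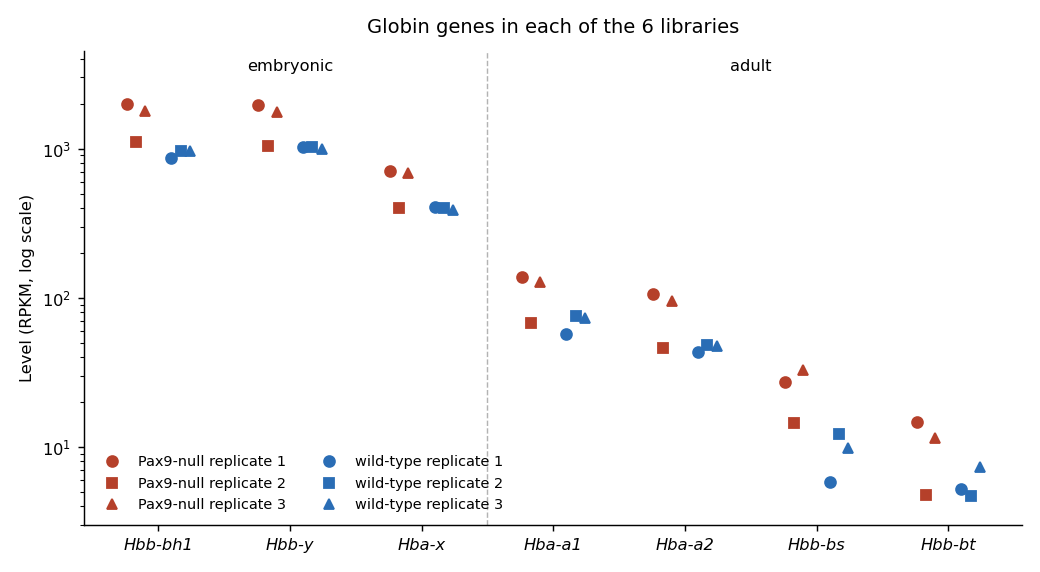
RPKM of the 7 globins in each of the 6 libraries on a log axis, 1 point per library, *Pax9*-null and wild-type replicates in separate positions. In each globin *Pax9*-null replicates 1 and 3 lie above *Pax9*-null replicate 2, which lies near the wild-type libraries.

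Adult globins were present at a small fraction of the embryonic level. Their summed RPKM was 286, 133 and 267 in the *Pax9*-null and 112, 140.4 and 138 in the wild-type libraries, so that the 2 genotypes overlapped. The embryonic sum over the adult sum was 16.3, 19.1 and 15.9 in the *Pax9*-null and 20.5, 17 and 17 in the wild-type libraries. Embryonic globins thus predominated in every library as measured, with adult reads that align to both sister genes left out. *Hba-a1* and *Hba-a2*, the adult alpha globins, measured 138, 67.6 and 128 RPKM and 106, 46.0 and 95.7 RPKM in the *Pax9*-null libraries. In the wild-type libraries they measured 57.5, 74.9 and 73.1 RPKM and 43.4, 48.6 and 47.7 RPKM. Neither passed the limma test (adjusted *P* = 0.126 and 0.111).

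The adult beta globins were the scarcest of the 7. *Hbb-bt* measured 14.6, 4.76 and 11.5 RPKM in the *Pax9*-null and 5.21, 4.67 and 7.3 RPKM in the wild-type libraries, from 38 to 118 reads (log2 fold change 0.72 ± 0.39, adjusted *P* = 0.226, limma). *Hbb-bs* measured 27.2, 14.5 and 32.7 RPKM against 5.8, 12.2 and 9.89 RPKM, from 56 to 294 reads. All 3 *Pax9*-null libraries lay above the wild-type libraries, and *Hbb-bs* rose 2.64-fold (log2 fold change 1.4 ± 0.35, adjusted *P* = 0.0478, limma), the largest change among the 37 genes. Each adult pair is nearly identical in sequence. Of the 100-base windows of their transcripts, 63.3% in *Hba-a1* and 79.5% in *Hba-a2* also occur in the other adult alpha gene, and 54.8% in *Hbb-bt* and 49.7% in *Hbb-bs* in the other adult beta gene. Since the authors kept uniquely aligned reads, the levels within each pair are uncertain. The sums of the adult globins may also be too low, as the 3 embryonic globins shared 0 such windows. The size of the embryonic to adult ratios is therefore uncertain, by an amount not measured here.

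The embryonic globins differed less between libraries in their ratio to each other than in their levels. *Hbb-bh1* over *Hbb-y* was 1.01, 1.07 and 1.03 in the *Pax9*-null and 0.844, 0.934 and 0.961 in the wild-type libraries, with no overlap. *Hba-x* over the adult alpha globins was 2.87, 3.54 and 3.1 against 4.05, 3.25 and 3.22. The adult beta globins amounted to 1.05%, 0.902% and 1.24% of the embryonic beta globins in the *Pax9*-null and 0.584%, 0.847% and 0.88% in the wild-type libraries, again without overlap. Wild-type replicate 1 had the lowest adult share of the beta globins and the highest embryonic to adult ratio of all 6 libraries.

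In the pathway of haem synthesis 2 of the 7 enzymes rose and 5 did not pass the test, beside 14.7% of all tested genes that rose. Their median log2 fold change was 0.22. *Alas2*, the erythroid form of the first and rate-limiting enzyme, measured 30.5, 11.4 and 36.1 RPKM in the *Pax9*-null and 21.1, 14.8 and 17.7 RPKM in the wild-type libraries. *Pax9*-null replicate 2 was the lowest of all 6 and the other *Pax9*-null libraries the highest (log2 fold change 0.39 ± 0.4, adjusted *P* = 0.503, limma). *Alad*, which joins the products of the first step into porphobilinogen, measured 57.0, 38.9 and 49.1 RPKM against 43.6, 52.4 and 49.6 RPKM. *Uros*, which closes the porphyrin ring, measured 8.54, 5.82 and 8.79 RPKM against 5.28, 5.63 and 5.26 RPKM. Its groups did not overlap and it rose 1.41-fold (adjusted *P* = 0.0862, limma).

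*Urod*, which removes carboxyl groups from the ring, was the steadiest enzyme in wild-type embryos, at 27.9, 27.5 and 27.9 RPKM, and measured 29.9, 24.6 and 34.3 RPKM in *Pax9*-null embryos. *Cpox*, the coproporphyrinogen oxidase, rose 1.48-fold, from 17, 15.8 and 14.9 RPKM in the wild-type to 26.3, 17.9 and 27.9 RPKM in the *Pax9*-null libraries (adjusted *P* = 0.0634, limma). *Ppox*, which forms protoporphyrin, measured 3.59, 3.24 and 4.64 RPKM against 3.76, 3.79 and 4.09 RPKM. *Fech*, the ferrochelatase that inserts iron, measured 22.3, 14.6 and 23.0 RPKM against 18.8, 15.9 and 16.0 RPKM (log2 fold change 0.22, adjusted *P* = 0.411, limma). *Urod*, *Ppox* and *Alad* had log2 fold changes of 0.08, −0.04 and −0.02, and each changed sign under at least one other setting.

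Of the 2 iron genes, *Tfrc*, the transferrin receptor, had *Pax9*-null libraries that were alike. The highest was 1.1-fold the lowest, beside 1.12-fold in *Sptb* and 1.15-fold in *Epb41*. *Tfrc* measured 97.5, 88.4 and 90 RPKM in the *Pax9*-null and 64.2, 70.0 and 62.1 RPKM in the wild-type libraries, from 4831 to 6983 reads. It rose 1.41-fold (log2 fold change 0.49 ± 0.09, adjusted *P* = 0.0264, limma), the lowest adjusted *P* of the 37 genes. *Tfrc* is used by dividing cells in general as well as by red-cell precursors. *Slc25a37*, the mitoferrin that carries iron into erythroid mitochondria, measured 12, 5.23 and 11.6 RPKM against 7.28, 5.71 and 6.34 RPKM (adjusted *P* = 0.286, limma).

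In the membrane skeleton directions were mixed, with 2 of 5 genes lower, none higher and 3 not past the test in *Pax9*-null embryos, beside 12.0% of all tested genes that fell and 26.7% called. *Epb41*, protein 4.1 that ties spectrin to actin, measured 9.41, 10.2 and 8.83 RPKM in the *Pax9*-null and 18.3, 12.2 and 13.4 RPKM in the wild-type libraries. *Sptb*, the beta spectrin, measured 1.74, 1.78 and 1.95 RPKM against 5.37, 2.5 and 2.48 RPKM. Neither pair of groups overlapped, and the fall was −0.61 ± 0.15 on the log2 scale in *Epb41* (adjusted *P* = 0.0483) and −0.82 ± 0.3 in *Sptb* (adjusted *P* = 0.0988, both limma). In both genes wild-type replicate 1 was the highest library. Both are made in tissues other than blood, and their exons add up to 15942 and 12147 bp, against a median of 4170 bp over all tested genes with a length.

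The other 3 membrane genes did not pass the test. *Slc4a1*, the band 3 anion exchanger, measured 19.9, 8.2 and 21.5 RPKM in the *Pax9*-null and 16.4, 9.11 and 10.5 RPKM in the wild-type libraries. *Epb42*, protein 4.2 that binds band 3, measured 3.37, 1.6 and 4.49 RPKM against 2.29, 1.61 and 1.71 RPKM. *Ank1*, the ankyrin that links band 3 to spectrin, was near the lower limit of the filter, at 0.584, 0.446 and 0.804 RPKM against 1.33, 0.41 and 0.532 RPKM. Their groups overlapped (limma adjusted *P* = 0.49, 0.243 and 0.833).

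Among the blood-group proteins *Rhag*, the Rh-associated ammonia channel, rose 1.87-fold, at 4.49, 1.99 and 4.79 RPKM in the *Pax9*-null and 1.8, 1.78 and 2.02 RPKM in the wild-type libraries (log2 fold change 0.91 ± 0.32, adjusted *P* = 0.0952, limma). The rise lay in *Pax9*-null replicates 1 and 3, while replicate 2 fell within the wild-type range. *Rhd*, its Rh partner, measured 5.77, 2.15 and 5.27 RPKM against 2.99, 2.92 and 3.22 RPKM. *Kel* and *Ermap*, which carry the Kell and Scianna antigens, had log2 fold changes of 0.38 and 0.2 from 32 to 137 reads per library. None of the 3 passed the limma test (adjusted *P* = 0.432, 0.457 and 0.771).

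Of the 6 regulators 1 rose, beside 14.7% of all tested genes. *Tal1*, the SCL factor needed for all blood formation, measured 7.23, 4.37 and 8.05 RPKM in the *Pax9*-null and 4.35, 3.61 and 4.38 RPKM in the wild-type libraries (log2 fold change 0.63 ± 0.23, adjusted *P* = 0.0996, limma). *Klf1*, the erythroid Krüppel-like factor, had the widest *Pax9*-null spread of the 37 genes, at 6.01, 2.13 and 8.5 RPKM, a 3.99-fold range, against 3.68, 2.67 and 3.46 RPKM in the wild-type libraries. *Gata1* measured 3.7, 1.16 and 3.55 RPKM against 2.21, 1.74 and 2.17 RPKM. For both, *Pax9*-null replicate 2 was the lowest of all 6 libraries.

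*Lmo2*, the bridge between TAL1 and GATA1 that endothelium also makes, varied little, at 13.7, 10.4 and 13.9 RPKM against 11.7, 11.4 and 9.71 RPKM. *Nfe2*, a globin-locus activator, measured 1.95, 1.18 and 2.67 RPKM against 1.52, 1.48 and 1.45 RPKM. *Gfi1b*, a repressor, rested on 15 to 35 reads per library. The adjusted *P* by limma was 0.41 for *Klf1*, 0.661 for *Gata1*, 0.321 for *Lmo2*, 0.478 for *Nfe2* and 0.769 for *Gfi1b*. *Epor*, the erythropoietin receptor, measured 2.58, 1.07 and 2.55 RPKM in the *Pax9*-null and 1.45, 1.49 and 1.38 RPKM in the wild-type libraries (adjusted *P* = 0.407, limma).

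Of the 5 other red-cell genes, *Trim10* and *Car2* rose, 2 of 5 beside the same 14.7%. *Trim10*, a RING-finger protein of erythroid cells, measured 5.44, 2.42 and 6.7 RPKM in the *Pax9*-null and 2.69, 1.97 and 2.11 RPKM in the wild-type libraries (log2 fold change 1.0 ± 0.36, adjusted *P* = 0.0966, limma). *Car2*, the carbonic anhydrase of red cells, measured 54.0, 31.0 and 56.0 RPKM against 28.5, 26.4 and 30.4 RPKM (log2 fold change 0.68 ± 0.21, adjusted *P* = 0.0741, limma). Only in *Car2* of these 5 did the groups not overlap. *Blvrb*, a biliverdin reductase of red cells, measured 6.81, 3.58 and 8.11 RPKM against 4.01, 4.03 and 4.13 RPKM. *Hemgn*, a nuclear protein of erythroid cells, measured 8.41, 3.44 and 8.98 RPKM against 6.14, 3.5 and 4.83 RPKM. *Tspan33*, a tetraspanin of red-cell precursors, measured 1.95, 1.06 and 1.85 RPKM against 1.71, 0.849 and 1.57 RPKM. These last 3 did not pass the limma test (adjusted *P* = 0.22, 0.429 and 0.633).

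**Figure D2:**
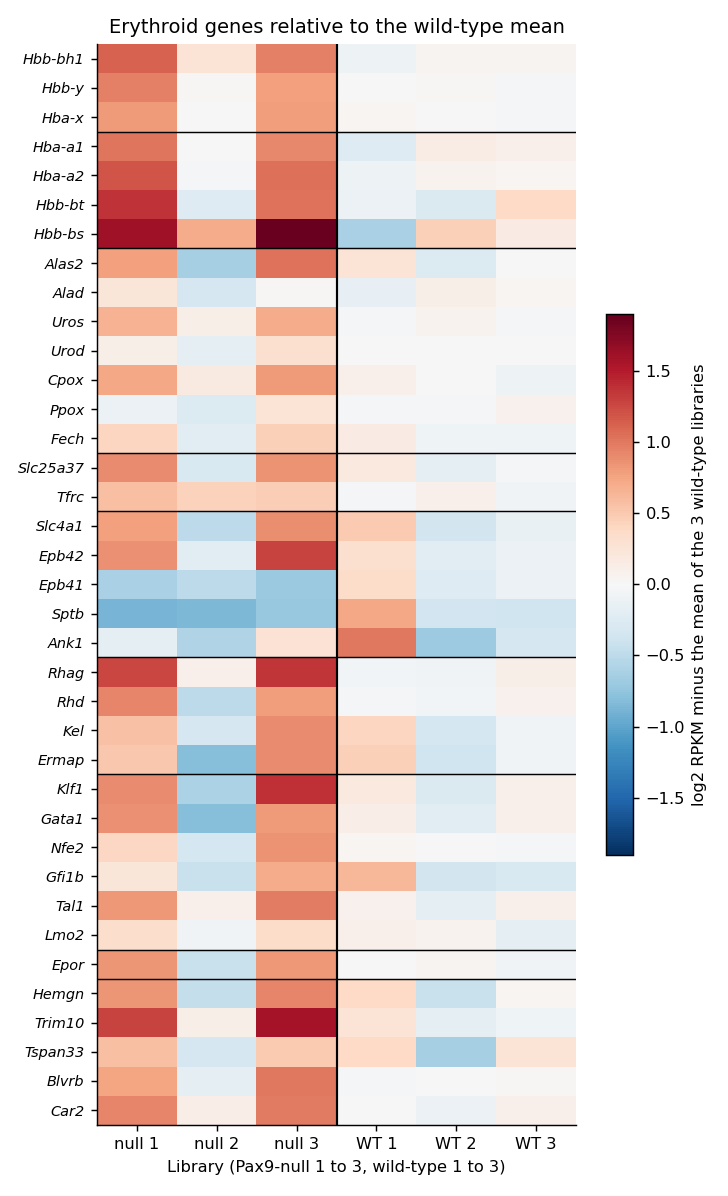
Heat map of the 37 genes (rows, by role) in the 6 libraries (columns), coloured by log2 RPKM minus the gene's mean over the 3 wild-type libraries. The column of *Pax9*-null replicate 2 is below the other *Pax9*-null columns in 35 of the 37 rows.

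The order of the libraries was the most regular feature of the gene set. *Pax9*-null replicate 2 was the lowest of its genotype in 35 of the 37 genes (94.6%), against 36.1% of all 13547 tested genes, and the exceptions were *Epb41* and *Sptb*. *Pax9*-null replicate 3 was the highest in 23 genes and replicate 1 in 13. The wild-type libraries were less regular, with replicate 2 lowest in 21 genes (56.8%), replicate 3 in 9 and replicate 1 in 7, while replicate 1 was highest in 21. Under other scalings, chosen after seeing the data, *Pax9*-null replicate 2 was lowest in 35 genes after centring on library medians, in 35 after quantile normalization (all but *Tfrc* and *Epb41*) and in all 37 after the length and GC trends were removed. The genes are not independent of each other, since they share the same libraries and the same blood.

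**Figure D3:**
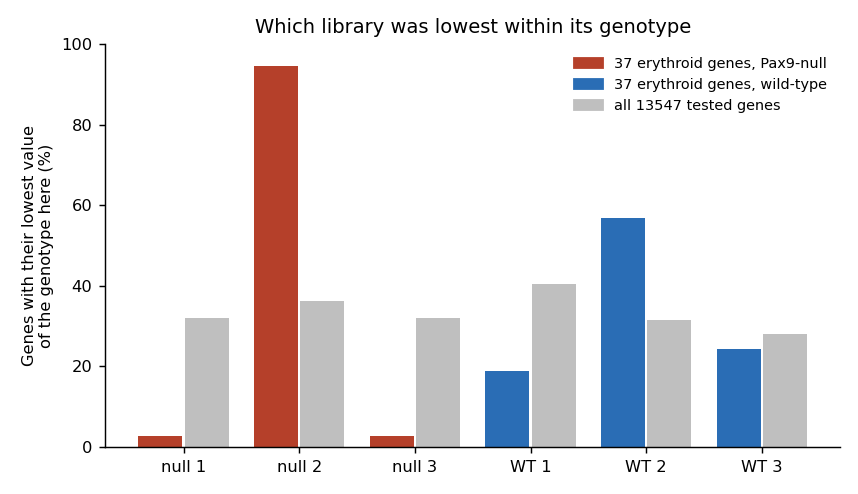
Percentage of genes in which each library is the lowest of its genotype, for the 37 erythroid genes and for all 13547 tested genes. *Pax9*-null replicate 2 reaches 94.6% of the erythroid genes and 36.1% of all genes.

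The spread within genotypes differed in the same way. The SD of log2 RPKM over the 3 *Pax9*-null libraries had a median of 0.567 over the 37 genes and of 0.148 over all tested genes, and 28 of the 37 were above the 90th percentile of all genes (0.361). Over the 3 wild-type libraries the medians were 0.157 and 0.173, and 5 of the 37 were above the 90th percentile (0.488). The highest *Pax9*-null library over the lowest ran from 1.1-fold in *Tfrc* to 3.99-fold in *Klf1*, and the same ratio in the wild-type libraries from 1.01-fold in *Urod* to 3.25-fold in *Ank1*.

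Of the 11 erythroid genes called between the genotypes, 9 were higher (*Tfrc*, *Hbb-bs*, *Hbb-bh1*, *Cpox*, *Car2*, *Uros*, *Rhag*, *Trim10* and *Tal1*) and 2 lower (*Epb41* and *Sptb*) in *Pax9*-null embryos, shares of the 37 to be read beside the 14.7% and 12.0% of all tested genes. The log2 fold change was above 0 in 32 of the 37, with a median of 0.44, beside 6748 of the 13547 tested genes. The 37 have a median exon length of 2511 bp, against 4170 bp over all tested genes with a length. With the length and GC trends removed the count was again 32, with a median of 0.34. In 9 genes (24.3%) the groups did not overlap, with 7 above and 2 below the wild-type libraries, beside 41.9% of all tested genes, 21.8% above and 20.1% below. For each of these 9 the two-sided exact permutation test gave *P* = 0.1, the smallest value that 3 libraries against 3 allow.

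The calls changed with single libraries. Without *Pax9*-null replicate 2, 26 of the 37 genes were called, 25 higher and 1 lower, beside 22.6% of all genes (12.4% higher and 10.2% lower), and the median log2 fold change was 0.84. In that fit *Alas2* had a log2 fold change of 0.91 (adjusted *P* = 0.0457), *Klf1* 1.14 (0.0491) and *Hba-a2* 1.12 (0.0285, all limma). The library left out was the lowest of its genotype in 35 of these same 37 genes. Its removal raises their fold changes by construction, so these calls and *P* values are no separate evidence of a rise. Without *Pax9*-null replicate 1 none of the 37 was called by limma (5 at an unadjusted *P* below 0.05), beside 2.22% of all genes, and without *Pax9*-null replicate 3 none (4 at an unadjusted *P* below 0.05), beside 1.29%. In both fits the 11 genes kept the direction of their fold change. Without *Pax9*-null replicate 1 the log2 fold change was −0.61 in *Epb41*, −0.79 in *Sptb*, 1.3 in *Hbb-bs* and 0.45 in *Tfrc*, beside −0.61, −0.82, 1.4 and 0.49 with all libraries. Without wild-type replicate 1, 2 or 3 the count was 4, 6 or 4, beside 13.3%, 26.4% and 15.8% of all genes. With the length and GC trends removed none was called by limma (10 at an unadjusted *P* below 0.05), beside 3.65% of all genes. The log2 fold change was then 0.67 in *Cpox*, 0.54 in *Uros*, 0.89 in *Tal1* and 0.9 in *Trim10*, beside 0.57, 0.49, 0.63 and 1.0 before. It shrank to 0.26 in *Tfrc*, 0.84 in *Hbb-bs*, 0.47 in *Rhag* and 0.56 in *Car2*, from 0.49, 1.4, 0.91 and 0.68. In *Hbb-bh1* it went from 0.78 to −0.06. Quantile normalization gave 7 (23.5% of all genes), the replicate number as a block 7 (10.2%), a variance without a trend 5 (20.8%) and an adjusted *P* of at most 0.05 gave 3 (9.85%). *Epb41* and *Sptb* kept negative log2 fold changes with the length and GC trends removed, of −0.25 and −0.24.

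**Figure D4:**
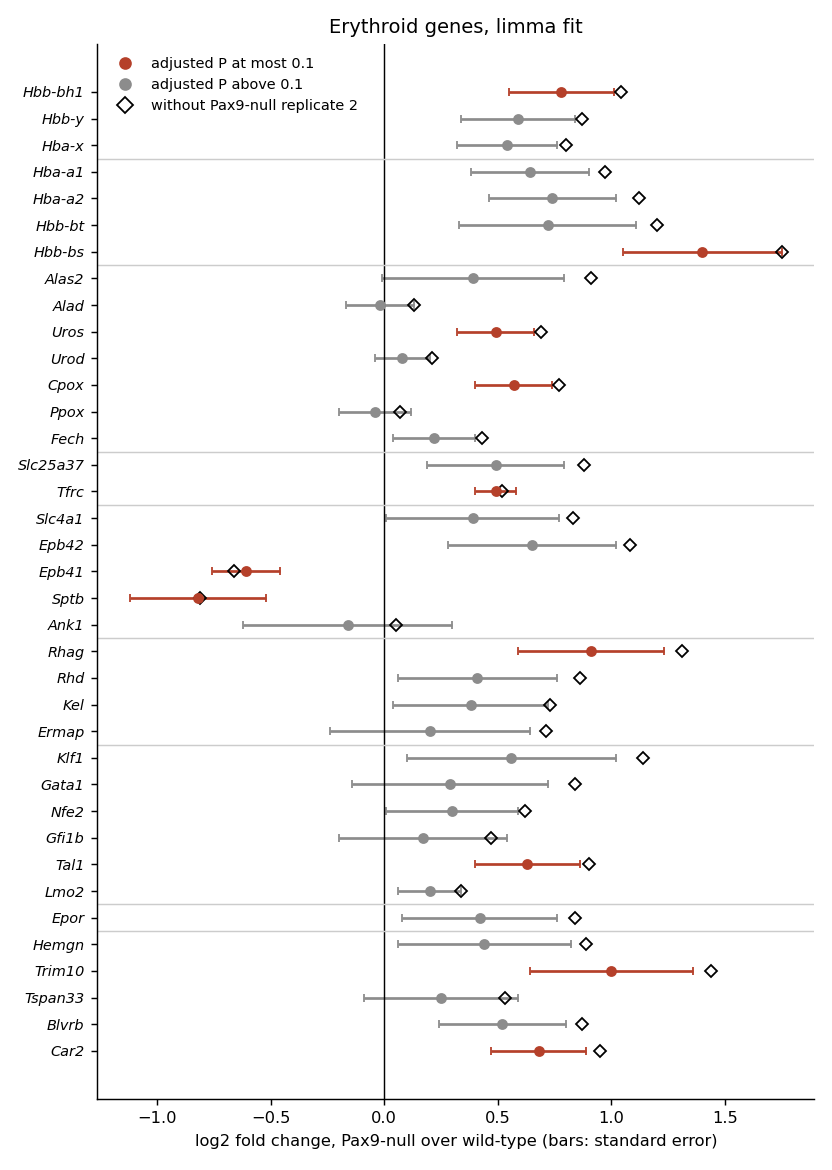
Log2 fold change (*Pax9*-null over wild-type) of each of the 37 genes, by role, with all 6 libraries (filled points with the SE of the limma fit as bars, red at an adjusted *P* of at most 0.1, grey above) and without *Pax9*-null replicate 2 (open diamonds). Of the diamonds 35 lie above 0, after removal of the library that was lowest of its genotype in most of these genes.

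The genes were next set against the embryonic globins of the same library, as RPKM per 1000 RPKM of *Hbb-bh1*, *Hbb-y* and *Hba-x* together. On this scale *Car2* was the most even, at 11.5, 12.2 and 13.2 in the *Pax9*-null and 12.4, 11.0 and 13.0 in the wild-type libraries, a range of 1.2-fold. *Hba-a1* and *Hba-a2* ranged 1.25-fold, *Tal1* 1.26-fold, *Uros* 1.29-fold, *Cpox* 1.32-fold and *Blvrb* 1.35-fold. These genes, named because their ranges were the smallest, kept almost the same proportion to embryonic globin in all 6 dissections.

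Other genes did not. *Sptb* ranged 6.31-fold, at 0.371, 0.702 and 0.459 in the *Pax9*-null and 2.34, 1.05 and 1.06 in the wild-type libraries. *Ank1* ranged 4.65-fold and *Epb41* 3.97-fold. *Alad*, *Urod*, *Ppox*, *Fech* and *Lmo2* were also below the wild-type libraries in every *Pax9*-null library, and *Hbb-bs* was above. The divisor was itself higher in *Pax9*-null embryos, at 2541 to 4682 RPKM against 2293 to 2390.2 RPKM. Division by it lowers the *Pax9*-null ratio of any gene whose own level is even, and the share of all tested genes on this scale was not counted. *Alas2* measured 6.52, 4.47 and 8.51 against 9.19, 6.18 and 7.57, and *Klf1* 1.28, 0.837 and 2.0 against 1.61, 1.12 and 1.48, so that within each genotype replicate 2 had the least of both per unit of globin. *Gata1* had the same order, at 0.791, 0.455 and 0.837 against 0.966, 0.73 and 0.926. The ratios carry the length dependence of the globins, since the globins are short and most of the other genes are not.

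**Figure D5:**
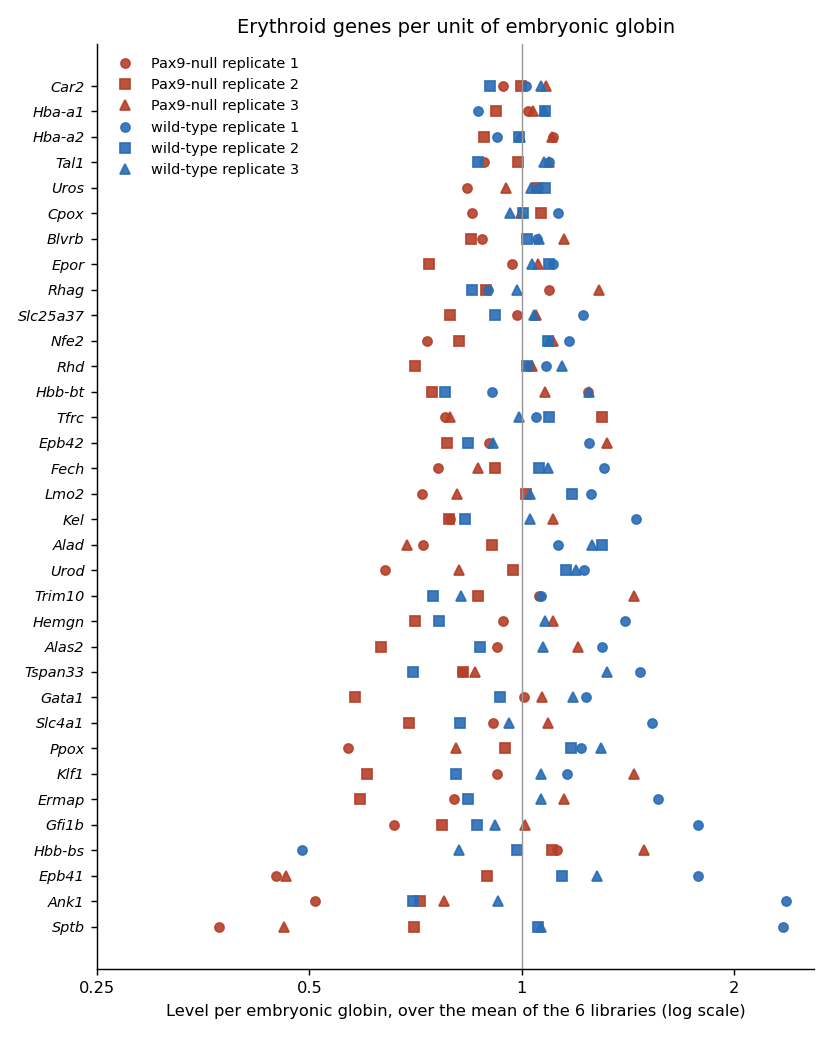
RPKM of each gene per 1000 RPKM of embryonic globins in the 6 libraries, relative to the gene's mean over them, on a log axis, with genes ordered by the highest over the lowest library. *Car2* ranges 1.2-fold and *Sptb* 6.31-fold.

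Further erythroid genes were less uniform than the 37. Of the other globin-locus genes only *Hbq1b*, theta globin, was tested, at 2.32, 0.776 and 2.29 RPKM in the *Pax9*-null and 1.04, 1.73 and 1.48 RPKM in the wild-type libraries, again with *Pax9*-null replicate 2 lowest (adjusted *P* = 0.758, limma). Of 19 other haem and iron genes 3 rose and 1 fell, with a median log2 fold change of 0.11. The share called was 21.1%, below the 26.7% of all tested genes. *Tmem14c*, a mitochondrial porphyrin carrier, rose by 0.36 (adjusted *P* = 0.0774) and *Ireb2*, an iron-responsive RNA-binding protein, by 0.34 (0.0757). Its relative *Aco1* fell by 0.27 (0.063, all limma). The ferritins *Fth1* and *Ftl1* had log2 fold changes of 0.03 and −0.06 (adjusted *P* = 0.871 and 0.757, limma).

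Of 29 other red-cell membrane and enzyme genes 5 rose and 1 fell, with a median of 0.10. The share called was 20.7%, below the 26.7% of all tested genes. *Bnip3l*, which clears mitochondria from maturing red cells, rose by 0.47 (adjusted *P* = 0.0482), *Cd24a*, a surface antigen of many embryonic cells, rose by 0.36 (0.0767) and *Add1*, an adducin, fell by 0.27 (0.0591, all limma). *Prdx2*, an abundant red-cell peroxiredoxin, had a log2 fold change of 0.1 (adjusted *P* = 0.516, limma). Of 19 other erythroid regulators *Ldb1*, the partner of LMO2, fell by 0.29 (adjusted *P* = 0.0541, limma), none rose, and the median was −0.16. That was 5.26% called, beside the same 26.7%. *Kdm1a*, a histone demethylase, had a log2 fold change of −0.16 (adjusted *P* = 0.239, limma). Without *Pax9*-null replicate 1 or 3, or with the length and GC trends removed, none of the 68 other genes was called by limma (5, 9 and 17 at an unadjusted *P* below 0.05).

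Markers of other cell types were set beside the red-cell genes. Of 12 megakaryocyte markers 5 were in the table, and their summed RPKM was 10.1, 4.67 and 7.41 in the *Pax9*-null and 8.24, 10.2 and 8.99 in the wild-type libraries. *Pf4*, platelet factor 4, measured 4.85, 1.86 and 2.54 RPKM against 3.55, 4.1 and 4.14 RPKM, and *Plek* 2.99, 1.38 and 2.61 RPKM against 1.92, 3.0 and 2.22 RPKM. Both were lowest in *Pax9*-null replicate 2. Of 15 macrophage markers 5 were in the table, with a sum of 1.97 to 3.75 RPKM over the 6 libraries, *Cd68* at 0.514 to 0.87 RPKM and *Lyz2* at 0.409 to 1.9 RPKM. Of 8 hepatocyte and visceral endoderm markers only *Apob* was in the table, at 0.0649 to 0.427 RPKM. None of the tested megakaryocyte or macrophage markers passed the limma test (0 at an unadjusted *P* below 0.05).

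The summed RPKM of 14 endothelial markers was 92.1, 108 and 92.6 in the *Pax9*-null and 154, 115 and 100.1 in the wild-type libraries, so that the vessel genes had another order than the blood genes. *Cdh5*, *Tie1* and *Robo4* fell by 0.67, 0.74 and 0.86 on the log2 scale (adjusted *P* = 0.0735, 0.082 and 0.0533, limma) and none rose. That was 21.4% of the 14, beside 26.7% of all tested genes called and 12.0% that fell. *Tek* and *Plvap* had log2 fold changes of −0.05 and −0.39 and did not pass. None of the 13 cardiomyocyte markers passed (0 at an unadjusted *P* below 0.05, limma), with *Actc1* and *Myl7* at 41.3 and 23.4 RPKM in wild-type replicate 3 and at 394 RPKM or more in the other 5. None of 9 tested markers of pharyngeal endoderm and epithelium passed (1 at an unadjusted *P* below 0.05, limma), and *Krt8* and *Krt18* had log2 fold changes of 0.18 each. Of 8 neural crest and mesenchyme markers, *Twist1* rose by 0.35 (adjusted *P* = 0.0399) and *Sox10* fell by 0.59 (0.0828), while *Pdgfra* had a log2 fold change of −0.36 (0.226, all limma). Their part in the red-cell values was not tested.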

How the data were processed

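RNA from the pharyngeal region of 6 embryos, 3 *Pax9*-null and 3 wild-type, was sequenced as 6 libraries. The submitters' processing notes name Trimmomatic 0.32, STAR 2.5.1a, featureCounts 1.5.1 and the builds GRCm38.p5 and mm10. The authors trimmed adaptors, kept uniquely aligned, non-redundant reads, sub-sampled libraries towards the smallest and counted reads on Ensembl genes. Removal of redundant reads limits the most abundant genes, globins included, by an amount not measured here. The deposited table holds log2 RPKM values, with a prior count of 0.5 reads worked out from the values, and 82.7% of them gave whole reads (within 0.05 reads) at GENCODE M21 gene lengths. The reads of *Cpox* needed a search of lengths and those of *Fech* were not recovered.

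The 14647 genes were filtered at a mean of 0.5 RPKM, leaving 13547, and tested two-sided with limma 3.58.1 (R 4.3.3, eBayes with a variance trend) on the deposited log2 values. Benjamini-Hochberg adjustment covered all tested genes, and an adjusted *P* of at most 0.1 was called. The fit was tested on simulated data with 200 changed genes. All 37 genes are named. Of every other list the called genes are named, or the 4 with the lowest *P*, with the 2 of highest level, apart from genes that are not reported here. The genes and lists were chosen with earlier results of these data known. Alternatives were 2 pseudocounts, 2 filters, 2 scalings, a replicate block, 2 variance models, removal of length and GC trends, a stricter threshold and each library left out. Labels do not say whether libraries came from separate litters, so *P* values measure the spread between these embryos.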

Additional observations from a re-analysis of the deposited data

How the results depend on the processing

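Of the alternatives, those that moved a count of calls by over 1.5 times are given for the 37 erythroid genes (11 called), the 68 other erythroid genes (11) and all genes (3611). The 37 gave 7 with quantile normalization. The replicate block gave 7, 3 and 1377. Correlations of same-numbered libraries were −0.0199, −0.173 and 0.26, and those of differently numbered libraries ran from −0.354 to 0.356. Whether the replicate numbers pair the embryos was not tested. A variance without a trend gave 5 and 3, fits free of length and GC trends 0, 0 and 493, and an adjusted *P* of at most 0.05 gave 3, 1 and 1335. Leaving out single libraries gave 0 to 26, 0 to 12 and 175 to 3578. The groups then did not overlap in 9 to 33 of the 37. Smaller groups overlap less often, and the share of all genes was not counted there, so this range is no result about the 37. The causes were not tested.

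Embryonic globins over their mean became 0.715 in wild-type replicate 1 with median centring. With length and GC trends removed they became 1.0 in *Pax9*-null replicate 3 and 1.14, 0.885 and 1.02 in the wild-type libraries. Adult globins became 0.855 and 0.92 in wild-type replicates 1 and 3. Without the adult alpha pair, that is from *Hbb-bt* and *Hbb-bs* alone, they were 0.44 and 0.673 in wild-type replicates 1 and 2.

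Signs of log2 fold changes that did not pass the test turned in the following cases, with those of called genes given last. Quantile normalization gave *Hbb-y* −0.05, *Urod* −0.01, *Fth1* −0.25 and *Prdx2* −0.17. Median centring gave *Alad* 0.02. Library weights gave *Ank1* 0.13, *Lyz2* 0.46 and *Tek* 0.23. Removal of length and GC trends gave *Hbb-y* −0.15, *Ppox* 0.2, *Ank1* 0.43 and *Hbq1b* −0.25. Leaving out single libraries gave ranges across 0 for *Alad* (−0.15 to 0.13), *Urod* (−0.04 to 0.21), *Ppox* (−0.19 to 0.07), *Ank1* (−0.5 to 0.35), *Ermap* (−0.14 to 0.71), *Gata1* (−0.0029 to 0.84), *Gfi1b* (−0.1 to 0.49), *Tspan33* (−0.06 to 0.53), *Actc1* (−0.17 to 1.72). The same held for *Fth1* (−0.05 to 0.11), *Ftl1* (−0.19 to 0.01), *Hbq1b* (−0.05 to 0.74), *Krt8* (−0.07 to 0.32), *Krt18* (−0.01 to 0.29), *Lyz2* (−0.75 to 0.36), *Plek* (−0.3 to 0.26) and *Tek* (−0.43 to 0.33). Called genes turned with length and GC trends removed in *Hbb-bh1* (−0.06), *Add1* (0.04), *Ldb1* (0.06) and *Tmem14c* (−0.14), and with quantile normalization in *Cd24a* (−0.01).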
